A study of Mus musculus with 8 samples.

Results

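The H3K27-me3 mark was examined at 51 genes that encode Wnt ligands, their receptors and their inhibitors, of 21851 protein-coding genes in the annotation. The genes were taken by name, and all 51 names were found. They comprise 19 Wnt ligands, 10 Frizzled receptors, 4 R-spondins, 3 R-spondin receptors (Lgr4, Lgr5 and Lgr6), 12 secreted antagonists and 3 feedback inhibitors (Axin2, Rnf43 and Znrf3). A gene was called marked where a deposited H3K27-me3 region lay within a stated distance of a start site of its protein-coding transcripts, or over its body.

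The regions came from ChIP-seq of liver of male C57BL/6 mice that carry floxed alleles of JMJD3, a demethylase of H3K27-me3. All mice received a virus at 8 weeks of age and were fasted for 16 h before the liver was taken, 12 weeks after the injection. One group received AAV-TBG-Cre, in which the hepatocyte promoter TBG drives Cre, and the control group received AAV-GFP. Each group had 2 H3K27-me3 libraries and 2 input libraries. The labels call the material primary liver cells, but the protocol starts from minced liver tissue, so the chromatin came from all cell types of the organ, while Cre was directed to hepatocytes only. In such tissue, a region called from a fraction of the cells cannot be told apart from a region present in all of them.

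Wnt ligands are secreted lipid-modified proteins that bind Frizzled receptors and co-receptors and stabilise beta-catenin. R-spondins act through Lgr receptors to keep Frizzled proteins at the cell surface, by removing the ubiquitin ligases Rnf43 and Znrf3. Dkk proteins and sclerostin block the co-receptors, Sfrp proteins, Frzb and Wif1 bind the ligands, and Notum removes the lipid from the ligand. In liver, endothelial cells of the central vein release Wnt2, Wnt9b and Rspo3, which hold pericentral hepatocytes in their metabolic state, and Axin2 is a target gene of the pathway. H3K27-me3 is laid down by Polycomb complexes, which often occupy CpG-rich promoters of developmental genes that are not in use.

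The authors deposited 1 list of regions per virus group, made from both libraries of that group, so no value had a replicate and no test between the groups was possible. The AAV-Cre list held 59267 regions that spanned 73.7 Mb (median width 753 bp). The AAV-GFP list held 34586 regions that spanned 14.9 Mb (median width 231 bp). No region was narrower than 300 bp in the AAV-Cre list or 120 bp in the AAV-GFP list, and 88.6% and 46.8% of the regions had a q-value of 0.05 or lower. The lists therefore differed in how they were called, at all genes, and a difference in length or in presence between them cannot be told apart from this. The files hold no read counts, so the depth behind a region is unknown. Each interval given with a share is a Wilson 95% interval and reflects counting error alone.

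The 200 bases before the start site are shown for 7 of the genes. They place promoters with and without an H3K27-me3 region within 1 kb side by side. The sequences are from RefSeq (GRCm38.p6) and run 5′ to 3′ on the strand of the gene, with each CpG dinucleotide in capitals. The first 3 have a region within 1 kb of the start site in both lists (Wnt1, Wnt8b and Lgr6), Wnt9a has one only in AAV-Cre, and Fzd5, Lgr4 and Axin2 have none in either list. The region of Wnt9a ends 343 bp before the start site, so it does not reach the bases shown.
Wnt1 (chr15:98789657-98789856, plus strand): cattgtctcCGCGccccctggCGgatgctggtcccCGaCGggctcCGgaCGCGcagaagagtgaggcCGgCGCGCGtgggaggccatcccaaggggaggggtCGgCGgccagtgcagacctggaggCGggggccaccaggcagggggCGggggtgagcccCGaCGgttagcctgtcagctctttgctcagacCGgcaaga
Wnt8b (chr19:44493272-44493471, plus strand): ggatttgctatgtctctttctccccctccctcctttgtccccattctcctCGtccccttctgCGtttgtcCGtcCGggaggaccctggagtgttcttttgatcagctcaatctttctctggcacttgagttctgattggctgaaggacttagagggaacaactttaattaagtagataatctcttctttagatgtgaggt
Lgr6 (chr1:135105277-135105476, minus strand): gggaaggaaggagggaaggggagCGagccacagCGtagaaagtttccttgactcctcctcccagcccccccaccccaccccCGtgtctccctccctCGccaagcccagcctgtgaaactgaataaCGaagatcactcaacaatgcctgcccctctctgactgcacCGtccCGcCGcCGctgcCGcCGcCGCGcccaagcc
Wnt9a (chr11:59306730-59306929, plus strand): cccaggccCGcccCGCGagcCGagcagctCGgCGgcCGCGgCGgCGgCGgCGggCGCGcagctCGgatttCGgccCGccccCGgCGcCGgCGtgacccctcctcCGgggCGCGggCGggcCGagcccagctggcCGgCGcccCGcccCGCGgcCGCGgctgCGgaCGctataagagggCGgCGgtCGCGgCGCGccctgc
Fzd5 (chr1:64737751-64737950, minus strand): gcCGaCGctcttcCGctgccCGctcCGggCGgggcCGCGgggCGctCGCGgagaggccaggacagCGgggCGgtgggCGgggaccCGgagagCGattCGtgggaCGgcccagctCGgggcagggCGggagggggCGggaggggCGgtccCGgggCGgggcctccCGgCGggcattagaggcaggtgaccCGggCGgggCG
Lgr4 (chr2:109917447-109917646, plus strand): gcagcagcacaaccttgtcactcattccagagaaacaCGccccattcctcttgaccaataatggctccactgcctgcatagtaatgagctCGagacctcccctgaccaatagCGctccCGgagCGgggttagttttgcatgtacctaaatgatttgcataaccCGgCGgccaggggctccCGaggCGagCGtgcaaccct
Axin2 (chr11:108920149-108920348, plus strand): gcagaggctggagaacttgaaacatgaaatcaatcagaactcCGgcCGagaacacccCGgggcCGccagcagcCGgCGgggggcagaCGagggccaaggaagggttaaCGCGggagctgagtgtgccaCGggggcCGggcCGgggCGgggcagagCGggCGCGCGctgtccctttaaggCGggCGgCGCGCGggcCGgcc
These stretches hold 19 CpG dinucleotides at Wnt1, 4 at Wnt8b, 13 at Lgr6, 41 at Wnt9a, 29 at Fzd5, 10 at Lgr4 and 23 at Axin2. Promoters with and without a region within 1 kb thus overlapped in CpG content, those with a region including the lowest count shown.

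Within 1 kb of a start site, 40 of the 51 genes had a region in AAV-Cre (78.4%, interval 65.4 to 87.5) and 35 in AAV-GFP (68.6%, interval 55 to 79.7), against 24.0% and 16.6% of all protein-coding genes. All 35 genes marked in AAV-GFP were also marked in AAV-Cre. In AAV-Cre only, 5 genes were marked (9.8%, interval 4.26 to 21), close to the 7.63% of all genes, and 0 were marked only in AAV-GFP, where the share of all genes was 0.288%. At 15 kb, the distance used by the study, 41 genes were marked in AAV-Cre and 38 in AAV-GFP, against 41.6% and 28.0% of all genes, so that the share of the Wnt genes (80.4% and 74.5%) rose little from 1 kb while that of all genes rose by more. In this window 3 genes were marked only in AAV-Cre (5.88%, interval 2.02 to 15.9, which includes the 14.8% of all genes) and 0 only in AAV-GFP (1.21% of all genes). Over the gene body, 40 genes were marked in AAV-Cre and 36 in AAV-GFP, against 28.9% and 20.7% of all genes. The bodies of 4 genes were marked only in AAV-Cre, where the share of all genes was 8.87%, and 0 only in AAV-GFP, where it was 0.723%.

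The share of marked genes varied between the roles. All 19 Wnt ligands were marked within 1 kb in AAV-Cre (100%, interval 83.2 to 100) and 16 in AAV-GFP (84.2%, interval 62.4 to 94.5). The secreted antagonists were close to this, with 11 of 12 in AAV-Cre and 10 of 12 in AAV-GFP. Of 10 Frizzled receptors 4 were marked, in both lists (40%, interval 16.8 to 68.7). This interval lay below that of the ligands in AAV-Cre, overlapped it in AAV-GFP, and included the 24.0% of all genes in AAV-Cre. The 3 feedback inhibitors had no region within 1 kb in either list (0%, interval 0 to 56.1, which includes the shares of all genes). The map of regions shows these blocks of marked and empty genes.

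**Figure D1:**
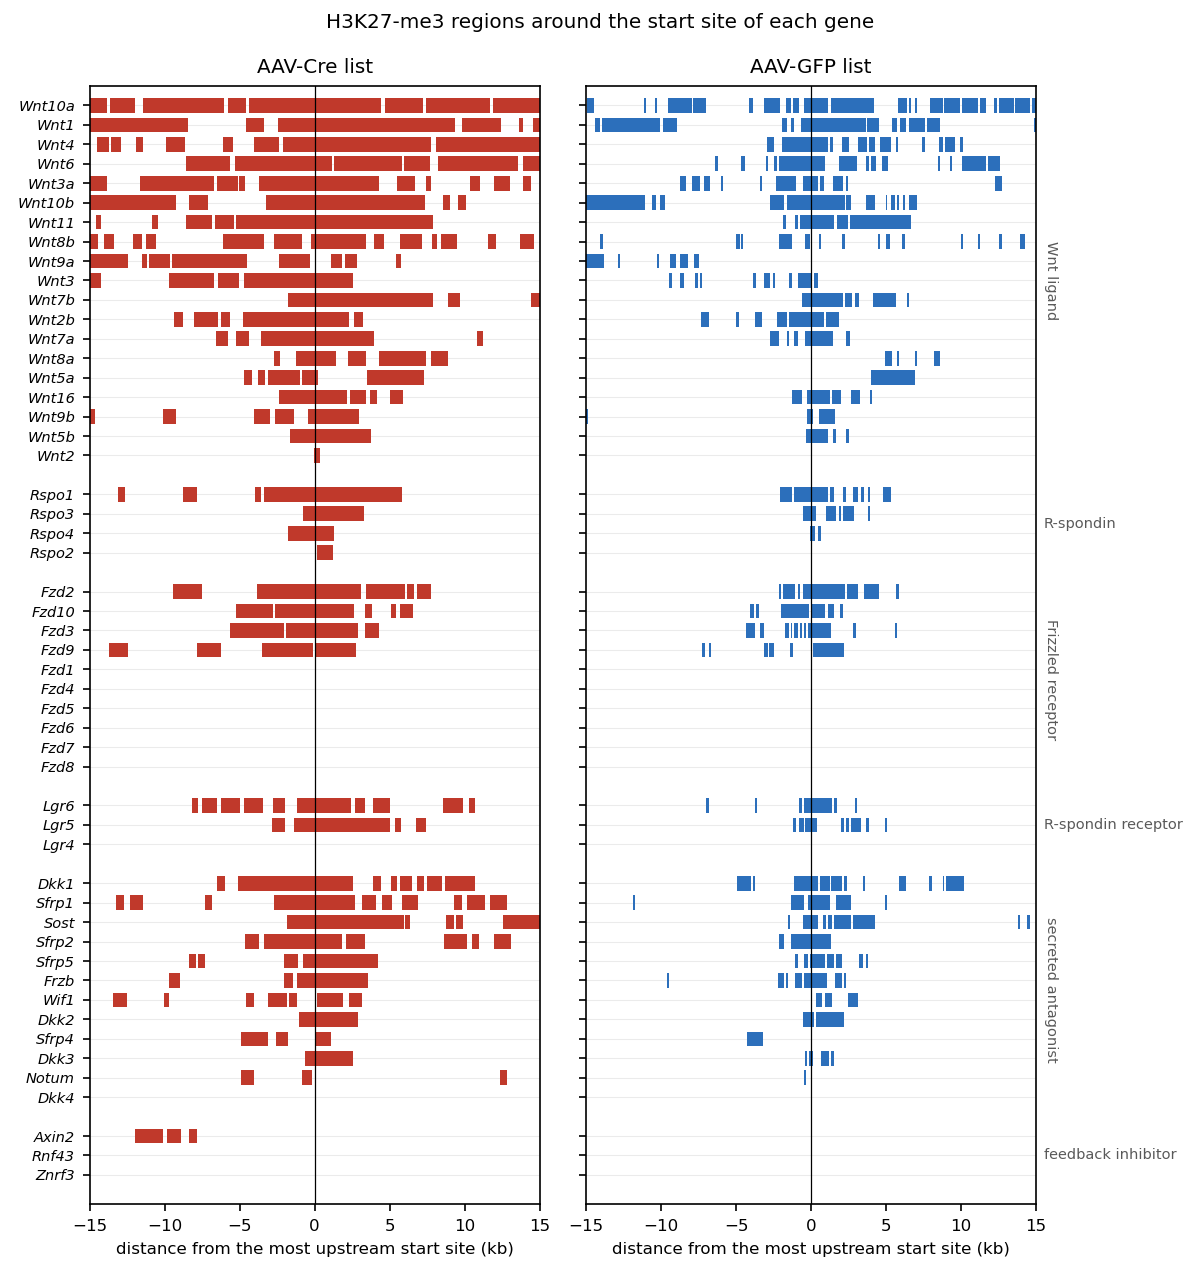
Regions of H3K27-me3 within 15 kb of the most upstream start site of each of the 51 genes, in the AAV-Cre list (left, red) and the AAV-GFP list (right, blue); the x axis is the distance from the start site in kb, with the gene running to the right, and genes are grouped by role and ordered by the sequence covered in AAV-Cre. All 19 Wnt ligands carry regions in AAV-Cre, while 6 of 10 Frizzled receptors are empty in both lists.

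Among the ligands, the length of marked sequence varied more than its presence. The windows of 15 kb on each side of the start sites of a gene, merged where it has several, held a median of 12418 bases of regions per ligand in AAV-Cre, with a range of 370 to 28192. In AAV-GFP the median was 3524 bases, with a range of 0 to 16319. The median over all protein-coding genes was 0 in both lists, because most of them had no region in these windows. Among genes with any covered base, the median was 3396 bases in AAV-Cre and 1186 in AAV-GFP. For the ligands with any covered base it was 12418 and 4260. Wnt10a, a ligand of skin and teeth, had the longest stretch of all 51 genes, 28192 bases in AAV-Cre (94.0% of its window) and 16319 in AAV-GFP. Wnt1, which patterns the midbrain, followed with 22927 and 13389 bases, and Wnt4, a ligand of kidney and gonad development, with 22280 and 7348. Wnt6 had 22187 and 8861 bases and held the strongest region of any of these genes in AAV-Cre, of rank 59 of 59267 by p-value, with a fold enrichment over input of 15.4. At the low end stood Wnt2, with 370 bases in AAV-Cre and 0 in AAV-GFP. Wnt9b, released by the same endothelial cells, had 6895 bases in AAV-Cre and 1611 in AAV-GFP, with its start site inside a region in both lists. The other 13 ligands lay between 5417 bases (Wnt5b) and 19748 bases (Wnt3a) in AAV-Cre.

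Where a ligand had several start sites, the mark did not always cover all of them. All 5 start sites of Wnt7b, all 5 of Wnt10b and all 3 of Wnt16 lay inside regions in both lists. Wnt5b, a ligand of planar polarity signalling like Wnt5a, had 2 of its 4 start sites inside regions in both lists. Wnt5a had both of its start sites inside AAV-Cre regions, but only the downstream one inside an AAV-GFP region. The AAV-Cre region at the upstream start site was 1074 bp wide with a fold of 3.76 and a q-value of 4.42e-09. At the downstream start site the AAV-Cre region was 3861 bp wide and the AAV-GFP region 2942 bp.

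Part of the long stretches was shared between neighbouring ligands, which sit in pairs in the genome. Wnt6 and Wnt10a lie 19624 bp apart on chromosome 1 and had 4 regions in common in AAV-Cre and 5 in AAV-GFP. Wnt1 and Wnt10b, in opposite orientation 11707 bp apart on chromosome 15, shared 3 and 6 regions, Wnt3a and Wnt9a (16176 bp) shared 5 and 6, and Wnt3 and Wnt9b (24329 bp) shared 2 and 1. The values of these 8 ligands are thus not independent of each other. In AAV-Cre, a region of 11806 bp covered the start site and whole body of Wnt1, and a second one of 10612 bp covered the start site of Wnt10b. The AAV-GFP list had a region of 4270 bp at the start site of Wnt1 and one of 3855 bp at that of Wnt10b. The widest region at any of the genes, of 13082 bp in AAV-Cre, lay at Wnt11, and had a fold enrichment of 14.9 and rank 87.

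The ligands marked within 1 kb only in AAV-Cre were Wnt2, Wnt8a and Wnt9a, and they differed in kind. At Wnt2 the single region was 370 bp wide (chr6:18030254-18030623, mm10), overlapping the start site and an exon that holds untranslated sequence. Its fold enrichment was 2.65 and its q-value 0.00191, which placed it at rank 29811, near the middle of the list. The AAV-GFP list had no region closer than 438713 bp. At Wnt8a, a ligand of the early embryo, a region of 2631 bp lay over the start site in AAV-Cre, while the AAV-GFP list had 4 regions, of which the nearest started 4952 bp into the gene. At Wnt9a the AAV-Cre list had a region of 2013 bp that ended 343 bp before the start site. The nearest AAV-GFP region lay 7455 bp upstream, between Wnt9a and Wnt3a. Of the 3 genes, only Wnt2 had no AAV-GFP region within 15 kb.

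The R-spondins, which amplify Wnt signals, had a median of 3584 covered bases in AAV-Cre and 1549 in AAV-GFP. Rspo1 had 10931 bases in AAV-Cre and 4846 in AAV-GFP, and its strongest AAV-Cre region had a fold of 13.5 and rank 225. Rspo3, the family member of the central vein, had 4096 and 2595 bases, in 1 AAV-Cre region and 5 AAV-GFP regions. Rspo4, known for its part in nail growth, had 3073 and 503 bases. Rspo2 was marked only in AAV-Cre, by a region of 1064 bp that began 126 bp from a start site, overlapping an exon, with a fold of 2.76 and a q-value of 0.0017. Its nearest AAV-GFP region was 25156 bp away. Like Wnt2, Rspo2 thus had its only region at a rank near the middle of the list, 29468 of 59267.

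The R-spondin receptors split. Lgr6 and Lgr5, markers of stem cells in skin and gut, were marked in both lists, and Lgr4, the receptor with the broadest expression, had no region within 15 kb in either. At Lgr6 the AAV-GFP region over the start site was the strongest of any of the 51 genes in that list, of rank 10 of 34586 with a fold of 11.5, although only 2757 bases of its windows were covered. The AAV-Cre list had 15074 bases there, with rank 114 for its strongest region. Lgr5, which in liver is expressed in pericentral hepatocytes, had 8425 bases in AAV-Cre and 2651 in AAV-GFP, and both of its start sites lay inside regions. The nearest regions to Lgr4 were 32886 bp away in AAV-Cre and 238542 bp in AAV-GFP.

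The Frizzled receptors fell into a marked and an empty set with little between. Fzd2 had 13038 bases in AAV-Cre and 5944 in AAV-GFP, Fzd10 had 9531 and 3803, Fzd3, a receptor of axon guidance, had 9371 and 3687, and Fzd9 had 9050 and 3264. Regions covered 92.4% of the body of Fzd2, 99.8% of that of Fzd9 and 81.7% of that of Fzd10 in AAV-Cre, genes whose bodies span only a few kb. The other 6, Fzd1, Fzd4, Fzd5, Fzd6, Fzd7 and Fzd8, had no base covered in either list. For Fzd6 the window mattered, since an AAV-Cre region lay 15388 bp from a start site, just outside it. The nearest AAV-Cre regions to the others were 34042 bp (Fzd7), 36621 bp (Fzd1), 69471 bp (Fzd4), 218585 bp (Fzd5) and 342664 bp (Fzd8) away. In AAV-GFP the nearest regions to the 6 genes lay between 63567 bp (Fzd1) and 689504 bp (Fzd8) away. Fzd8 was the farthest from a region of the 51 genes in both lists. The plot of covered sequence shows the gap between the 4 marked Frizzled genes and the rest.

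**Figure D2:**
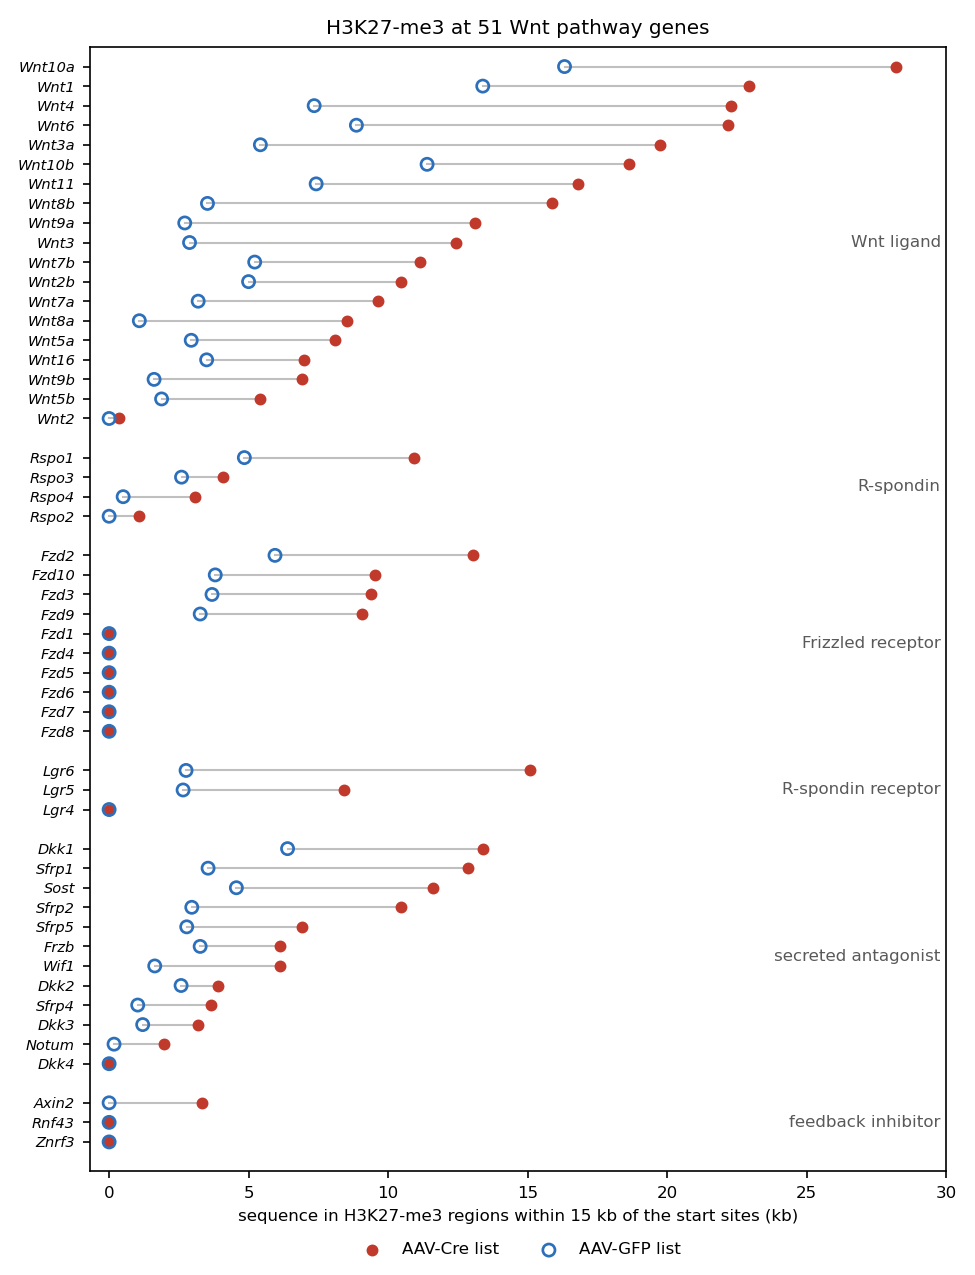
Sequence inside H3K27-me3 regions within 15 kb of the start sites of each of the 51 genes (x axis, kb), in the AAV-Cre list (filled red) and the AAV-GFP list (open blue), 1 pooled list per group without replicates. The longest stretch is at Wnt10a (28192 bases in AAV-Cre), 6 Frizzled genes are at 0 in both lists, and no gene has more sequence covered in AAV-GFP than in AAV-Cre.

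Of the 12 secreted antagonists, 11 had covered sequence in both lists, with a median over all 12 of 6120 bases in AAV-Cre and 2680 in AAV-GFP. Dkk1, which blocks the Wnt co-receptors, had 13399 and 6394 bases. Sfrp1, a decoy with a Frizzled-like domain, had 12860 and 3546, and Sost, which encodes the bone protein sclerostin, had 11592 and 4560. Sfrp5 had 6923 and 2781 bases, Wif1 had 6114 and 1635, and Dkk3, a divergent member of its family, had 3198 and 1203. AAV-Cre regions covered the whole body of Sost and 98.5% of that of Sfrp5. Sfrp2, Frzb and Dkk2 had 10470, 6125 and 3919 bases in AAV-Cre and 2962, 3262 and 2579 in AAV-GFP. Dkk4 was the only antagonist without a region within 15 kb, its nearest being 122686 bp away in AAV-Cre and 132798 bp in AAV-GFP.

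The calls of Sfrp4 and Notum each rested on a particular region. At Sfrp4 a region of 1092 bp was present only in AAV-Cre, with a fold of 3.99 and a q-value of 3.54e-07. It covered 1 of the 3 start sites of Sfrp4, not the most upstream one. The only AAV-GFP region of Sfrp4, of 1025 bp, lay 3217 bp upstream at the start site of the neighbouring gene Epdr1. AAV-Cre also had a region of 1767 bp there, so the mark at 15 kb may be counted for either gene. Notum had a region of 651 bp in AAV-Cre that ended 193 bp from a start site and a region of 176 bp in AAV-GFP inside it. The AAV-GFP region had a q-value of 0.0884, so the call of Notum in that list rests on a region above a q-value of 0.05. AAV-Cre regions covered 1976 bases near Notum and AAV-GFP regions 176.

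The 3 feedback inhibitors had no region within 1 kb of their start sites, a number of genes too small to set them apart from all genes. Axin2, a scaffold of the complex that degrades beta-catenin, had 3 regions only in AAV-Cre, all upstream and between genes, with near ends 7847, 8885 and 10130 bp from the start site. The strongest of them (chr11:108908408-108910219, mm10) had a fold of 5.11 and a q-value of 4.44e-15, and the nearest to the gene had a q-value of 0.111. The closest AAV-GFP region to Axin2 was 153890 bp away. Rnf43 had its nearest regions at 48453 bp in AAV-Cre and 60359 bp in AAV-GFP, and Znrf3 at 114879 bp and 229047 bp.

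The regions of the Wnt ligand genes were centred on the start site. At the start site itself, 94.7% of the 19 genes of the Wnt ligand group lay inside an AAV-Cre region, and 31.6% and 26.3% did so at 10000 bp upstream and downstream. In AAV-GFP the values were 73.7% at the start site, 5.26% upstream and 10.5% downstream. Of the secreted antagonist genes, 66.7% were inside a region at the start site in both lists, and 83.3% at 1000 bp downstream in AAV-Cre. Of all protein-coding genes, 18.1% lay inside an AAV-Cre region at the start site and 9.56% inside an AAV-GFP region. Over all 51 genes, the 15 kb downstream held 1.11 times the covered sequence of the 15 kb upstream in AAV-Cre and 1.54 times in AAV-GFP. For the antagonists these ratios were 1.58 and 2.05, and for the ligands 1.04 and 1.42, with no spread between libraries to set them against. The profile by distance shows the ligands highest at the start site in AAV-Cre, and the antagonists highest downstream of it.

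**Figure D3:**
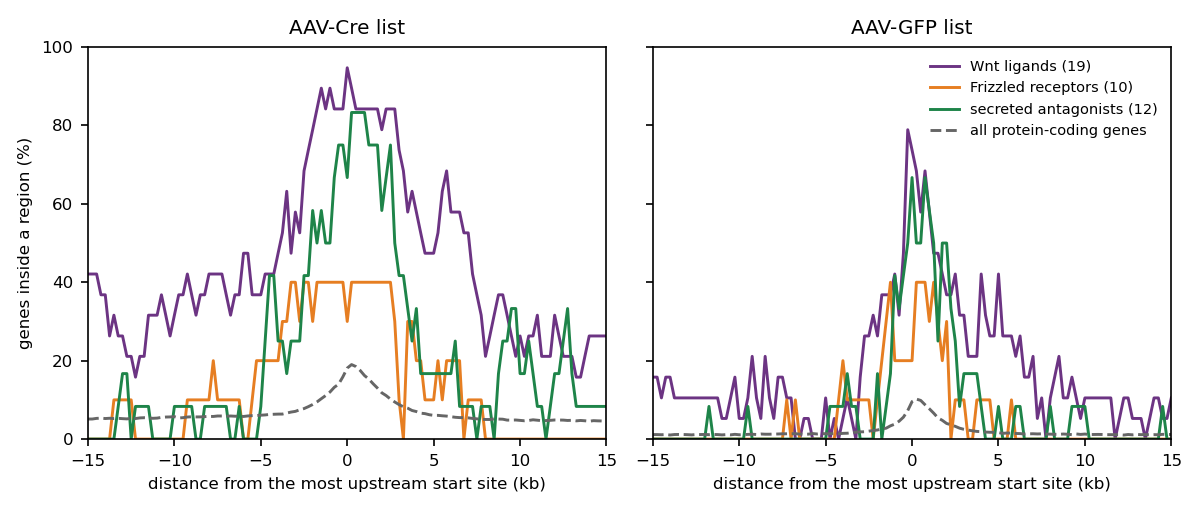
Share of genes (y axis, %) whose sequence at each distance from the most upstream start site (x axis, kb; negative is upstream) lies inside an H3K27-me3 region, in the AAV-Cre list (left) and the AAV-GFP list (right), for 19 Wnt ligands, 10 Frizzled receptors, 12 secreted antagonists and all protein-coding genes (dashed). The ligands reach 94.7% at the start site in AAV-Cre and the Frizzled receptors do not pass 40%.

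The regions at these genes were wider than those of their whole lists and more often among the strongest. The 188 AAV-Cre regions within 15 kb had a median width of 1053 bp, where the whole list had 753 bp, and 24 of them (12.8%) were 5000 bp or wider, against 2.71% of all. In AAV-GFP, the median width of the 240 regions was 326 bp, where the whole list had 231 bp. In that list 0 of them reached 5000 bp, a width rare there at all genes (0.165% of all regions). By p-value, 28.2% of the AAV-Cre regions and 20% of the AAV-GFP regions were in the top 10% of their list. The median fold was only slightly above that of the whole list, 3.17 against 2.9 in AAV-Cre and 2.79 against 2.61 in AAV-GFP. Nearly all AAV-GFP sequence at these genes, 98.7%, fell within AAV-Cre regions, whereas 37.7% of the AAV-Cre sequence fell within AAV-GFP regions. Of the AAV-GFP regions 96.2% overlapped an AAV-Cre region by at least 1 bp (86.4% in the whole list), and of the AAV-Cre regions 41% overlapped an AAV-GFP region (24.2% in the whole list).

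All 38 genes with covered sequence in both lists had more of it in AAV-Cre. The ratio of the AAV-Cre length to the AAV-GFP length had a median of 2.71, with quartiles of 2.15 and 3.64, and a range from 1.52 at Dkk2 to 11.2 at Notum. The same ratio over 5850 protein-coding genes covered in both lists had a median of 3.8, with quartiles of 2.43 and 7.14, and 5838 of them had more sequence in AAV-Cre. A greater length in AAV-Cre was thus shared by nearly all marked genes, and the median of the Wnt genes lay within the quartiles of all genes. Rspo3 (1.58), Wnt10b (1.64), Wnt1 (1.71) and Wnt10a (1.73) were at the low end, Lgr6 (5.47), Rspo4 (6.11) and Wnt8a (7.87) at the high end. In AAV-Cre, regions covered at least 90% of the body of 8 genes, namely Wnt1, Wnt6, Wnt10a, Wnt10b, Fzd2, Fzd9, Sfrp5 and Sost, and in AAV-GFP that of Wnt1 and Fzd9. The shares of all protein-coding genes with so much of the body covered were 2.08% and 0.407%.

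CpG content within 500 bp of the start site did not separate the marked from the empty genes. The median was 6.49 CpG per 100 bases over the 51 genes, 6.49 over the 35 marked within 1 kb in both lists and 8.19 over the 11 marked in neither, against 4.3 over all protein-coding genes. The 4 marked Frizzled genes ranged from 6.49 to 12.7 and the 6 empty ones from 5 to 10.1. Znrf3, with 13.6, and Dkk4, with 1.7, were both empty, while Wnt4, with 13.7, and Sost, with 1.8, were both marked. Among all genes, the share marked within 1 kb in AAV-Cre was lowest, 7.5%, below 1 CpG per 100 bases. That class holds 0 of the 51 genes. The share was highest, 39.5%, at 2 to 4 CpG per 100 bases. It was 24.3% at 8 or more, the class that holds 22 of the 51 genes, of which 15 were marked. The plot of CpG content shows the overlap.

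**Figure D4:**
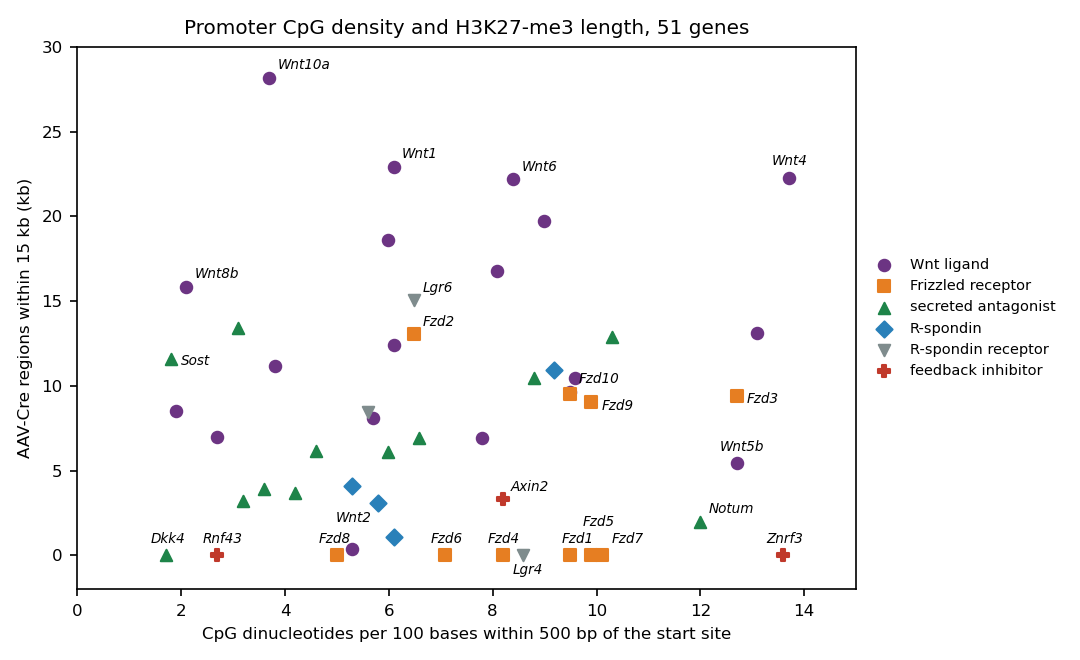
CpG dinucleotides per 100 bases within 500 bp of the most upstream start site (x axis) and sequence inside AAV-Cre H3K27-me3 regions within 15 kb of the start sites (y axis, kb) for the 51 genes, with a symbol for each role. Genes at 0 kb span the range from 1.7 (Dkk4) to 13.6 (Znrf3), much like the marked genes.

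The letters CTTTGAT, a core of the sites that TCF/LEF factors of the Wnt pathway bind, were searched on both strands (the reverse complement is ATCAAAG) from 250 bases before to 50 after each RefSeq start site. They were present in 2 of 38 promoters of 34 of these genes (5.26%), at Wnt5b and Wnt11, and in 637 of 20143 promoters of protein-coding genes (3.16%). Both genes were marked in both lists, but at Wnt5b the letters lay at a start site downstream of the marked one. The only AAV-Cre region within 15 kb of any Wnt5b start site covered the most upstream one, far from the letters. A match of letters is not a binding site.

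Other genes of the pathway were counted in the same way, and their shares were not tested against those of the ligands. Of 21 other surface and secretion genes, 11 had a region within 1 kb in AAV-Cre (52.4%, interval 32.4 to 71.7) and 8 in AAV-GFP (38.1%, interval 20.8 to 59.1). Wls, the carrier that brings Wnt ligands to the cell surface, was marked only in AAV-Cre, as were the antagonist genes Sostdc1 and Cer1 and the Wnt7 cofactor Reck. These 4 genes were 19% of this list (interval 7.67 to 40), against 7.63% of all genes. Ndp, which encodes the Frizzled ligand norrin, was marked only in AAV-GFP, by 193 bases (4.76%, against 0.288% of all genes). Of 36 intracellular genes, 9 were marked in AAV-Cre and 5 in AAV-GFP (25% and 13.9%), close to the shares of all genes given above. Apc2, Tcf7l1 and the co-repressors Tle3 and Tle4 were marked only in AAV-Cre (11.1%, interval 4.41 to 25.3, which includes the 7.63%). Of 10 planar polarity genes, 7 were marked in AAV-Cre (70%, interval 39.7 to 89.2) and 6 in AAV-GFP (60%, interval 31.3 to 83.2), intervals that overlap those of the ligands. Prickle1 was marked only in AAV-Cre (10%, against 7.63% of all genes). Of 16 pericentral Wnt target genes of hepatocytes, 7 were marked in AAV-Cre (43.8%, interval 23.1 to 66.8) and 5 in AAV-GFP (31.2%, interval 14.2 to 55.6). These intervals include the 24.0% and 16.6% of all genes, and 9 of the 16 were marked in neither list. Oat, an aminotransferase of ornithine, and Rhbg, an ammonium transporter, were marked only in AAV-Cre (12.5%, against 7.63% of all genes). At Oat the covered length within 15 kb was 18248 bases in AAV-Cre and 1265 in AAV-GFP.

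Other families of secreted signals had shares close to that of all 51 Wnt genes, and lower than that of the Wnt ligands alone. Of 26 FGF ligands and receptors, 19 were marked within 1 kb in AAV-Cre (73.1%, interval 53.9 to 86.3) and 17 in AAV-GFP (65.4%). Fgf10 and Fgf23 were marked only in AAV-Cre (7.69%, close to the 7.63% of all genes). Of 33 TGF-beta and BMP ligands, 23 were marked in AAV-Cre (69.7%, interval 52.7 to 82.6) and 18 in AAV-GFP (54.5%). Bmp7, Gdf2, Gdf3, Gdf9 and Lefty2 were marked only in AAV-Cre (15.2%, interval 6.65 to 30.9, which includes the 7.63%). The intervals of the shares marked in each list are compared next. These intervals overlap that of the 51 Wnt genes, a set that also holds receptors and inhibitors. The intervals of the FGF set overlap those of the Wnt ligands alone in both lists (46.2 to 80.6 for the FGF set in AAV-GFP). The FGF ligands were not counted apart from the FGF receptors. For ligands alone, the AAV-Cre interval of the TGF-beta and BMP ligands lay below that of the Wnt ligands (100%, interval 83.2 to 100). In AAV-GFP the 2 intervals overlapped (38 to 70.2, and 62.4 to 94.5 for the Wnt ligands). The median covered length within 15 kb over all 51 Wnt genes was 8102 bases in AAV-Cre and 2757 in AAV-GFP. It was 4498 and 1504 bases over the FGF ligands and receptors. For ligands alone, the medians were 12418 and 3524 bases at the Wnt ligands and 4952 and 1429 at the TGF-beta and BMP ligands, and none of these differences was tested.

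The tissue was checked against marker genes of liver cell types. None of 19 hepatocyte markers found in the annotation had a region within 15 kb in either list. Of all genes, 41.6% had one at that distance in AAV-Cre and 28.0% in AAV-GFP. At this number of markers, the Wilson interval allows a share of up to 16.8%. Within 1 kb, where 24.0% of all genes were marked in AAV-Cre and 16.6% in AAV-GFP, 3 and 2 of 10 markers of liver endothelial cells were marked (30% and 20%, intervals 10.8 to 60.3 and 5.67 to 51), shares near those of all genes. The counts were 9 and 8 of 10 for stellate cell markers (90% and 80%), 6 and 4 of 8 for cholangiocyte markers (75% and 50%), and 1 and 0 of 8 for macrophage markers (12.5% and 0%). Clec4g, Colec11, Rgs5, Krt7, Cftr and Adgre1 were marked only in AAV-Cre, and Dcn only in AAV-GFP. Regions at Wnt2, Wnt9b and Rspo3, genes known from endothelial cells, thus came from chromatin in which those cells were mixed with others, and which cells carried the mark was not tested.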

How the data were processed

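H3K27-me3 ChIP-seq regions of liver were analysed as 1 deposited list per virus group, each pooled by the authors from 2 libraries, so no value per mouse is available. Per the labels and the study's methods, the authors mapped reads to mm10 with BWA 0.7.13, filtered them with SAMtools 1.2 and Picard 1.126, and called peaks with MACS in the AQUAS pipeline against a pooled input. Peaks that overlapped across replicates were kept. The deposited columns hold the fold enrichment over input, the −log10 p-value and the −log10 q-value of each peak, and the position of its summit. These columns were used within a list only, and folds were not compared between lists. These lists hold no read counts, so the depth is unknown.

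Genes and start sites were those of basic protein-coding transcripts in GENCODE M21 on GRCm38, the assembly of mm10, leaving out the mitochondrial genome. Regions within 1 kb or 15 kb of any start site, regions over the gene body, and the union of bases covered within 15 kb were recorded (Python 3.11.15, pandas 2.3.3, pysam 0.24.0). Regions were called shared with at least 1 bp of overlap. The interval arithmetic was checked against a direct search. CpG content was read from the genome. RefSeq promoters on GRCm38.p6 were found for 34 of the 51 genes. Wilson 95% intervals cover counting error only.

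The genes, the other lists and the markers were chosen with earlier results of these data known. Of 20 hepatocyte markers, 19 were found by name. All 51 genes were counted. Those described singly were the genes marked within 1 kb in only 1 list, those with no region within 15 kb in either list, the 3 with most covered bases in AAV-Cre in each role, and a set of genes of liver biology (Wnt2, Wnt9b, Rspo1, Rspo3, Lgr4, Lgr5, Fzd4, Fzd5, Fzd7, Fzd8, Rnf43, Znrf3, Axin2, Notum, Dkk1, Dkk3, Sfrp1, Sfrp5 and Wif1). Others are named as extremes, neighbours or sequence matches, and were chosen after their values were seen. Genes of the other lists are named where they were marked within 1 kb in only 1 list. Alternatives changed the q-value threshold, the number and width of peaks, the start sites and the windows.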

Additional observations from a re-analysis of the deposited data

How the results depend on the processing

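Of 82 comparisons of a count or a median length with its value under an alternative, 78 stayed within 1.5 times of it. With a window of 5 kb in place of 1 kb, the genes marked only in AAV-Cre fell from 5 to 3 (Wnt2, Wnt9a and Rspo2; 10.2% of all genes), since Wnt8a and Sfrp4 had AAV-GFP regions at that distance. With 50 kb in place of 15 kb, they numbered 7 in place of 3 (17.2% of all genes), and included Fzd1, Fzd6, Fzd7, Lgr4 and Rnf43 but not Rspo2. Where regions had to cover at least 10% of the gene body, the bodies marked in AAV-GFP fell from 36 to 18 (5.91% of all genes) and those marked only in AAV-Cre rose from 4 to 10 (9.63% of all genes). With a q-value of 0.05 or lower, Wnt8b and Notum were also marked within 1 kb only in AAV-Cre, which made 7. The share of all genes rose as well, from 7.63% to 9.66%. With the most upstream start site alone, Wnt5a joined the 5 (7.41% of all genes). With 34586 top peaks in each list, the counts within 1 kb were 40 and 35 as before. With the start sites of all annotated transcripts, Rnf43 gained an AAV-Cre region within 15 kb. No paired analysis was possible because the lists hold no values per replicate, and leaving out a replicate could not be run for the same reason. The unknown depth and the different widths of the calls limit every comparison between the lists.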
